A study of Mus musculus with 35 samples.

Results

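Small RNAs silence other transcripts through a short chain of proteins, and the transcripts of 9 genes of that chain were followed through zygotes and early 2-cell (2C) mouse embryos. The genes were Drosha, Dgcr8, Xpo5, Dicer1, Ago1, Ago2, Ago3, Ago4 and Mael. They were taken by name from the 24480 genes of the count table, and all 9 had a row of their own. Between control zygotes and control 2C samples Drosha and Ago3 rose, Xpo5, Dicer1 and Ago2 fell, and Dgcr8, Ago1, Ago4 and Mael did not pass the test. Injection of Kdm5b mRNA moved none of the genes past the test at either stage, with Ago4 too low to be tested there. Most Argonaute transcripts came from Ago3 in every sample.

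In the miRNA pathway the nuclear Microprocessor, formed by the RNase III enzyme DROSHA and its RNA-binding partner DGCR8, cuts hairpins out of primary transcripts. Exportin 5 carries the hairpins to the cytoplasm, DICER cuts them to their mature length, and an Argonaute protein holds the mature strand against its targets. In mouse oocytes the miRNA branch is known to be weakly active, and DICER and Argonaute act chiefly with endogenous siRNAs. Maelstrom, the product of Mael, belongs to the piRNA pathway, which restrains transposons in germ cells.

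All embryos were labelled wild-type C57BL/6NRj. Control zygotes (n = 10) and Kdm5b zygotes (n = 10) were single 1-cell embryos fertilised in vivo, injected into the cytoplasm with water or with Kdm5b-yfp mRNA at about 1150 ng/µl, and collected 17 h after ovulation. Control 2C samples (n = 9) and Kdm5b 2C samples (n = 6) received the same injections soon after the first division and were collected 5.5 to 8 h after it. KDM5B removes methyl groups from lysine 4 of histone H3, and the question behind the injection was whether early loss of this mark changes the transcripts of the embryo. The controls received no mRNA, so KDM5B activity and injected mRNA as such cannot be told apart. Of the 2C samples, 3 controls and 1 Kdm5b sample held 2 or 3 blastomeres from different embryos, and the others were single intact embryos. The 2C embryos came from zygotes that had been frozen and thawed, and libraries of the 2 stages were prepared on separate days, so stage, freezing and library day cannot be told apart.

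Samples held 8705584 to 17797581 fragments on genes. Kdm5b took 0.000272% to 0.0189% of them in the 19 water-injected samples and 2.30% to 15.8% in the 16 injected with its mRNA, and its row was removed before any other value was computed. All 6 oocyte markers (Zp3, Gdf9, Bmp15, Zar1, Nlrp5 and Ooep) were present in every group, and the summed level of 5 markers of the 2-cell stage was 7.90 to 39.0 TPM in zygotes and 58.8 to 371 TPM in 2C samples. The 12 markers of cumulus cells, which surround the oocyte, summed to 12.2 to 46.6 TPM, and in 3 of the 4 groups Cyp19a1 was the single marker with a median over 1 TPM (in control 2C samples Has2 was another). Mature small RNAs were not measured. Of 1175 rows of miRNA genes, 848 had no fragment in any sample and 5 had a mean of 10 or more.

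Levels were compared between genes in TPM, which divide fragments by exon length and scale each sample to the same sum. TPM are shares of the counted RNA, so a lower share and more RNA from other genes cannot be told apart, nor, in samples of several blastomeres, can fewer cells and less RNA per cell. In control zygotes Dicer1 stood first at 239 TPM ± 13.0 (SD, n = 10), rank 916 of 24479 genes by mean TPM. Drosha followed at 167 ± 17.3, Mael at 82.1 ± 18.0, Ago3 at 57.9 ± 3.14 and Xpo5 at 41.0 ± 6.04 (SD, n = 10 each). Dgcr8 stood at 22.5 ± 3.89, Ago2 at 18.0 ± 2.02, Ago1 at 1.72 ± 0.734 and Ago4 at 0.275 ± 0.207 TPM (SD, n = 10 each). All 8 neighbours in this order differed within samples (two-sided exact permutation test by sign flips, Benjamini-Hochberg over the 32 neighbour pairs of the 4 groups). The test asks whether the mean difference within samples is 0, and neighbours were set by the same mean TPM. The least distinct pair was Dgcr8 over Ago2, with Dgcr8 higher in 9 of 10 samples and an adjusted p of 0.0132. In Kdm5b zygotes the order was the same, and neither Mael and Ago3 (adjusted p = 0.0625 in the same exact test) nor Dgcr8 and Ago2 (adjusted p = 0.0547) passed.

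In 2C samples the first place passed to Drosha. In control 2C samples Drosha stood at 268 TPM ± 43.6 and Dicer1 at 187 ± 23.9 (SD, n = 9), with Drosha higher in 8 of 9 samples (two-sided exact permutation test, adjusted p = 0.0132). Here Mael and Ago3, Xpo5 and Dgcr8, and Dgcr8 and Ago2 were neighbours that did not pass, with adjusted p of 0.0714, 0.217 and 0.108 in the exact test. In Kdm5b 2C samples Drosha stood at 232 TPM ± 25.4 and Dicer1 at 172 ± 28.2 (SD, n = 6), with Drosha higher in 5 of 6 samples (adjusted p = 0.0714, exact test). Ago3 at 85.3 ± 16.2 and Mael at 83.4 ± 28.5 could not be ordered there (Ago3 higher in 3 of 6 samples, adjusted p = 0.844 in the exact test), and neither could Xpo5 and Dgcr8 or Dgcr8 and Ago2. With 6 samples this test cannot give an unadjusted p below 0.0313. Of the 32 neighbour pairs of the 4 groups, 23 passed.

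**Figure D1:**
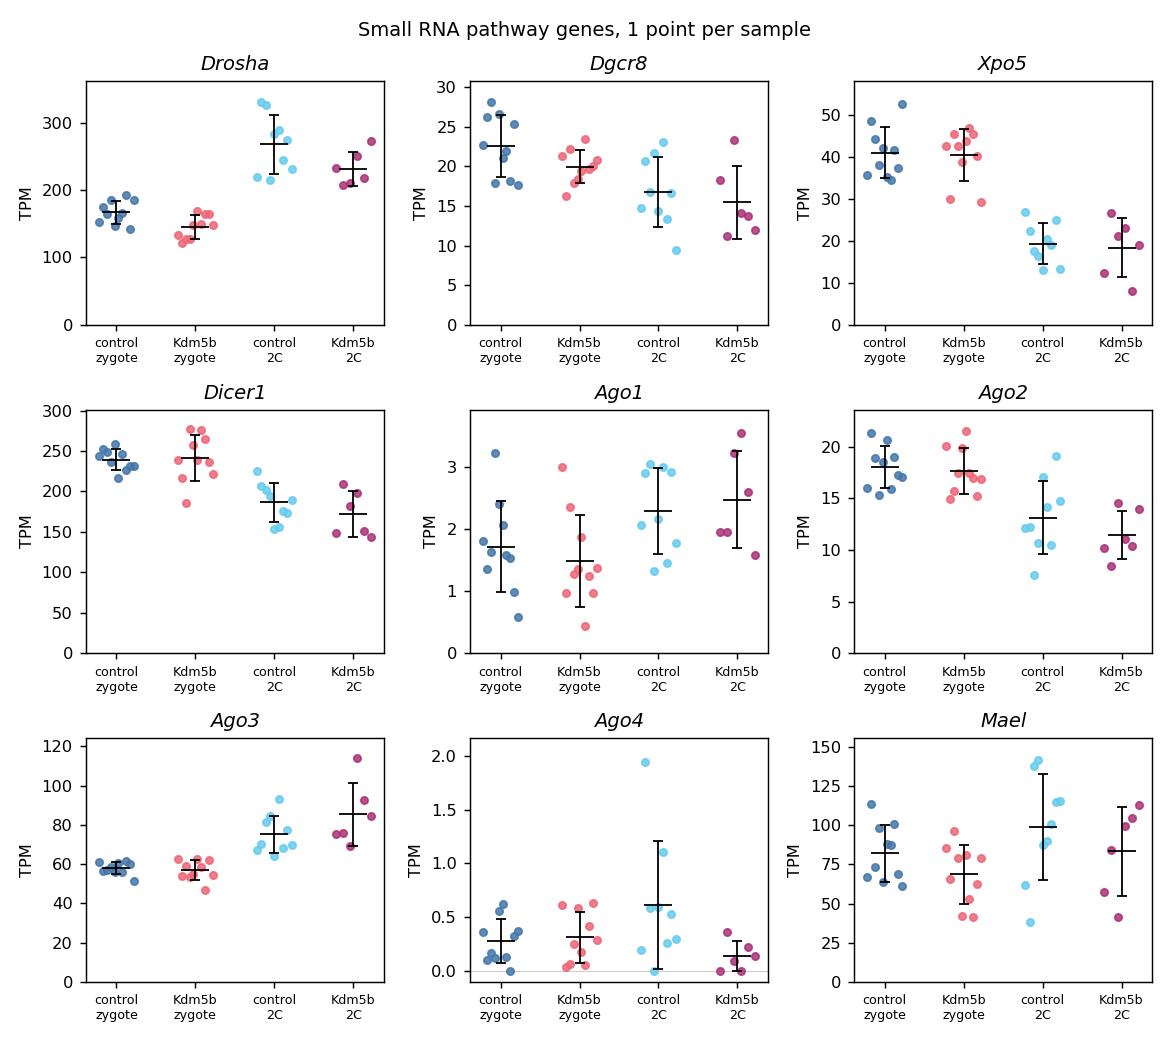
Level of each gene in TPM (vertical axis, linear, starting at 0 or, for Ago4, just below it) in control and Kdm5b zygotes and control and Kdm5b 2C samples, with 1 point per sample and black marks for the mean and SD. Drosha and Ago3 lie higher and Xpo5 lower in both 2C groups than in the zygotes, with no overlap between the stages, and Ago4 stays under 2 TPM in every sample.

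Of the 9 genes, 5 passed an adjusted p of 0.05 between control zygotes and control 2C samples (edgeR quasi-likelihood test, Benjamini-Hochberg over 11968 genes). Of all genes tested, 26.8% were higher and 25.4% lower in control 2C samples, so 2 higher and 3 lower of 9 are shares close to those of all genes. The median log2 fold change was 0.36 over the 9 genes, Ago4 among them, and 0.02 over all genes, a difference that was not tested. That median is the value of Mael, which did not pass, with 5 of the 9 estimates above 0 and 4 below. None of the 9 also passed a log2 fold change of 1, against 22.2% of all genes, and Xpo5 missed it narrowly. In Kdm5b embryos 6 of 8 genes tested passed between the stages, 3 higher and 3 lower, where 29.3% of 12390 genes were higher and 29.5% lower. The median log2 fold change there was 0.06 over these 8 genes, without Ago4, and 0.01 over all genes. The samples of this second comparison are other embryos than those of the first. For Drosha, Ago3 and Xpo5 the TPM of the stages did not overlap, and how many of all genes were so separated was not counted.

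Drosha (chr15:12824815-12935291 of mm10, plus strand, 35 exon blocks) encodes the nuclease that makes the first cut in miRNA processing. It ranged from 142 to 193 TPM in control zygotes (median 166), from 121 to 169 in Kdm5b zygotes (median 148), from 215 to 331 in control 2C samples (median 274) and from 208 to 272 in Kdm5b 2C samples (median 226). Every 2C sample lay above every zygote. Drosha rose by 0.77 ± 0.09 (SE) on the log2 scale in control embryos (edgeR quasi-likelihood test, adjusted p = 1.28e-07) and 0.79 ± 0.10 in Kdm5b embryos (adjusted p = 1.47e-07). Of the RNase III pair, Dicer1 moved the other way.

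Dgcr8 (chr16:18253964-18289168, minus strand, 14 exon blocks) encodes the partner that recognises the hairpin. Its level was 17.7 to 28.1 TPM in control zygotes (median 22.3) and 9.39 to 23.0 in control 2C samples (median 16.6). In Kdm5b embryos it was 16.3 to 23.5 in zygotes (median 19.8) and 11.2 to 23.3 in 2C samples (median 14.0). The stages overlapped in both pairs of groups. Its log2 fold change was −0.35 ± 0.15 (SE) in control embryos (edgeR, adjusted p = 0.0561) and −0.27 ± 0.14 in Kdm5b embryos (adjusted p = 0.0972), so neither passed. The first value passed when control zygote 4, 8 or 10 or control 2C sample 2, 4 or 6 was left out, with adjusted p down to 0.0256, and the second when Kdm5b 2C sample 3 was left out (adjusted p = 0.00709). Exons of Dgcr8 overlap Mir1306 and Gm24572 on the same strand, where fragments cannot be assigned with certainty, and Trmt2a on the other strand, which the stranded counting keeps apart.

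The ratio of Drosha to Dgcr8 in TPM was 7.70 ± 2.06 in control zygotes (SD, n = 10, range 5.51 to 10.7) and 16.9 ± 4.31 in control 2C samples (SD, n = 9, range 9.91 to 24.6). In Kdm5b embryos it was 7.34 ± 0.986 (SD, n = 10) and 16.1 ± 4.77 (SD, n = 6). These ratios describe the transcripts of the 2 Microprocessor subunits and were not tested.

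Xpo5 (chr17:46202855-46242299, plus strand, 32 exon blocks) encodes the exporter of precursor hairpins. It had the largest called change of the 9 genes in both stage comparisons. Its level ran from 34.5 to 52.5 TPM in control zygotes (median 39.8), from 29.3 to 46.9 in Kdm5b zygotes (median 42.5), from 13.1 to 26.9 in control 2C samples (median 19.0) and from 7.97 to 26.6 in Kdm5b 2C samples (median 20.1). Every 2C sample lay below every zygote. As a log2 fold change the difference was −0.999 ± 0.14 (SE) in control embryos (edgeR, adjusted p = 1.21e-06) and −1.02 ± 0.19 in Kdm5b embryos (adjusted p = 7.93e-05).

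Dicer1 (chr12:104687742-104751952, minus strand, 27 exon blocks) encodes the nuclease that cuts hairpins and long double-stranded RNA. Mouse oocytes also make a shortened Dicer1 transcript from a start inside the gene, and counts per gene do not separate the 2 forms. Dicer1 ranged from 216 to 258 TPM in control zygotes (median 240.5), from 186 to 278 in Kdm5b zygotes (median 239), from 154 to 226 in control 2C samples (median 189.9) and from 143 to 209.5 in Kdm5b 2C samples (median 166.5). Of the 9 control 2C samples 8 lay below the lowest control zygote. The fall was small, with a log2 fold change of −0.27 ± 0.07 (SE) in control embryos (edgeR, adjusted p = 0.00298) and −0.38 ± 0.10 in Kdm5b embryos (adjusted p = 0.00161). The ratio of Drosha to Dicer1 in TPM went from 0.700 ± 0.0900 in control zygotes (SD, n = 10) to 1.46 ± 0.315 in control 2C samples (SD, n = 9), and from 0.607 ± 0.0811 (SD, n = 10) to 1.39 ± 0.323 (SD, n = 6) in Kdm5b embryos.

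**Figure D2:**
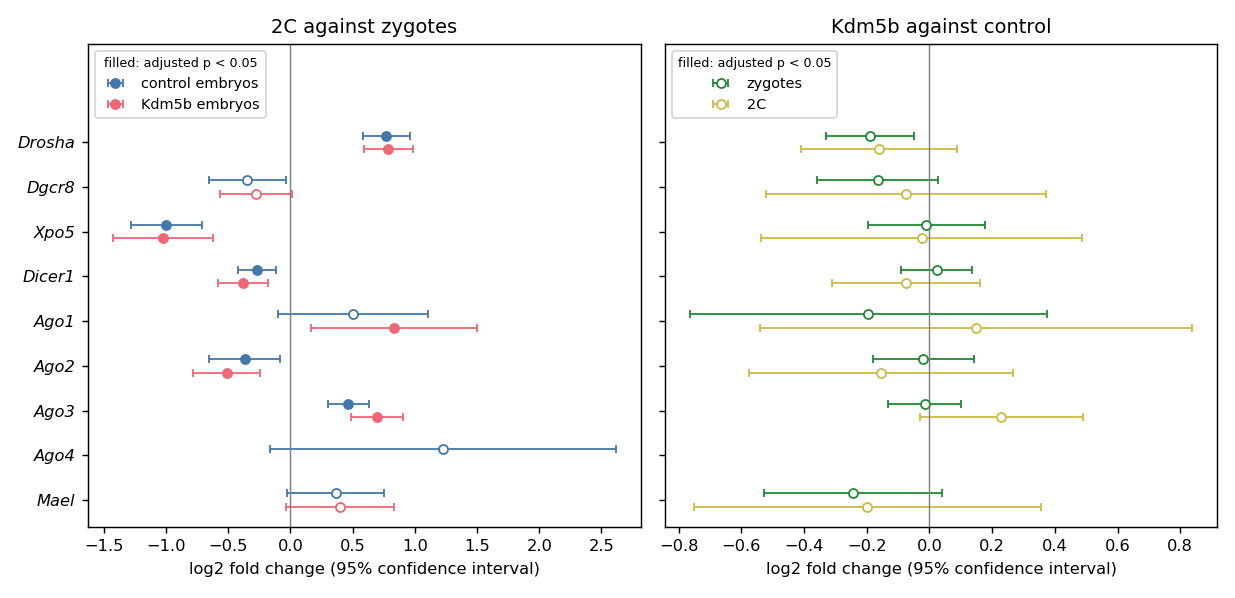
Log2 fold change with its 95% confidence interval for each gene, for 2C against zygotes in control and Kdm5b embryos (left) and for Kdm5b against control in zygotes and 2C samples (right), filled where the adjusted p is under 0.05. Drosha and Ago3 lie right of 0 and Xpo5, Dicer1 and Ago2 left of it in both stage comparisons, no point on the right panel is filled, and Ago4 was tested in a single comparison of these 4.

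The 4 Argonaute genes encode the proteins that hold small RNAs. All 4 repress targets in mammals, and AGO2 can also cut them, through a catalytic site whose last residue is a histidine. The coding sequence around this residue is shown for the 4 genes because their transcripts are so unequal in number, with the codon of that position in capitals (GENCODE M21 on GRCm38, coding strand, all on the minus strand of the chromosome).
Ago1: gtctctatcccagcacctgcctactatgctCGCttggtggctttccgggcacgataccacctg
Ago2: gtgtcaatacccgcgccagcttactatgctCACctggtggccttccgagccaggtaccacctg
Ago3: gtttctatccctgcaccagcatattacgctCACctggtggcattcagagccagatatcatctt
Ago4: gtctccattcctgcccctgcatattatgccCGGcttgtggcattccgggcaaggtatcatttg
The windows lie at chr4:126439862-126439924 (Ago1, exon 18 of 19), chr15:73107185-73107247 (Ago2, exon 18 of 19), chr4:126346651-126346713 (Ago3, exon 18 of 19) and chr4:126496769-126496831 (Ago4, exon 17 of 18). The codon is number 805 of 857 in Ago1, 808 of 860 in Ago2 and in Ago3, and 809 of 861 in Ago4. It is CAC, for histidine, in Ago2 and Ago3, CGC in Ago1 and CGG in Ago4, both for arginine. Over the whole coding sequence the genes were 72.2% (Ago2 and Ago3) to 75.7% (Ago1 and Ago3) identical in aligned bases. Of all stretches of 50 bases in the transcripts used, 125 of 7178 in Ago1, 4 of 13751 in Ago2, 121 of 15546 in Ago3 and 0 of 6488 in Ago4 also occurred in a transcript of another Argonaute gene. Fragments that map to several places were not counted, so few fragments could pass from one Argonaute gene to another.

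Ago3 (chr4:126340678-126429542, minus strand, 19 exon blocks) made up 74.3% ± 2.03 of the summed Argonaute TPM in control zygotes (SD, n = 10) and 82.3% ± 4.05 in control 2C samples (SD, n = 9). In Kdm5b embryos its share was 74.5% ± 2.55 in zygotes (SD, n = 10) and 85.6% ± 3.33 in 2C samples (SD, n = 6). The lowest share in any sample was 71.2%. Its level was 51.4 to 61.5 TPM in control zygotes (median 57.8), 46.7 to 62.5 in Kdm5b zygotes (median 56.5), 64.3 to 93.04 in control 2C samples (median 70.4) and 69.3 to 113.9 in Kdm5b 2C samples (median 80.2). Every 2C sample lay above every zygote. Ago3 rose by 0.46 ± 0.08 (SE) on the log2 scale in control embryos (edgeR, adjusted p = 2.33e-05) and 0.70 ± 0.10 in Kdm5b embryos (adjusted p = 2.81e-06).

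Ago2 (chr15:73101625-73184947, minus strand, 19 exon blocks) moved the other way. It ran from 15.3 to 21.3 TPM in control zygotes (median 17.9), from 15.0 to 21.6 in Kdm5b zygotes (median 17.2), from 7.63 to 19.1 in control 2C samples (median 12.2) and from 8.48 to 14.5 in Kdm5b 2C samples (median 10.8). The Kdm5b 2C samples all lay below the Kdm5b zygotes, and 7 of 9 control 2C samples lay below the lowest control zygote. The log2 fold change was −0.51 ± 0.13 (SE) in Kdm5b embryos (edgeR, adjusted p = 0.00165) and −0.37 ± 0.14 in control embryos (adjusted p = 0.0286). The call in control embryos was lost when control zygote 2 or 6 or control 2C sample 4 or 7 was left out, with adjusted p of 0.0509 to 0.0536. Its share of the Argonaute TPM was 23.1% ± 2.23 in control zygotes (SD, n = 10) and 14.5% ± 3.84 in control 2C samples (SD, n = 9), and Ago3 exceeded it 3.25-fold ± 0.398 and 6.17-fold ± 2.13. Ago2 and Ago3, the genes with the CAC codon, together held 94.4% to 99.3% of the Argonaute TPM in every sample. The codon gives a single residue of the catalytic site, and cutting by either protein was not measured.

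Ago1 (chr4:126435012-126468583, minus strand, 19 exon blocks) was far lower. It had 17 to 122 fragments per sample, and its level was 0.591 to 3.22 TPM in control zygotes (median 1.60), 0.442 to 3.00 in Kdm5b zygotes (median 1.32), 1.32 to 3.05 in control 2C samples (median 2.17) and 1.58 to 3.55 in Kdm5b 2C samples (median 2.28). The stages overlapped in control and in Kdm5b embryos. The log2 fold change was 0.83 ± 0.32 (SE) in Kdm5b embryos (edgeR, adjusted p = 0.0301) and 0.50 ± 0.29 in control embryos (adjusted p = 0.154). The call in Kdm5b embryos was lost when Kdm5b zygote 2 or Kdm5b 2C sample 3 or 4 was left out, with adjusted p of 0.0545 to 0.0923.

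Ago4 (chr4:126489541-126533458, minus strand, 18 exon blocks) was near the limit of counting. Control zygotes held 0 to 19 fragments (median 7.5), Kdm5b zygotes 1 to 21 (median 8.5), control 2C samples 0 to 52 (median 11) and Kdm5b 2C samples 0 to 8 (median 2.5). Control 2C sample 2, at 1.95 TPM, stood highest, and 2 of the 6 Kdm5b 2C samples had no fragment. Among the comparisons of 2 groups, the filter on low counts let it through for the control stages alone, where the log2 fold change of 1.22 ± 0.67 (SE) did not pass (edgeR, adjusted p = 0.133). Its 95% confidence interval ran from −0.16 to 2.61.

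**Figure D3:**
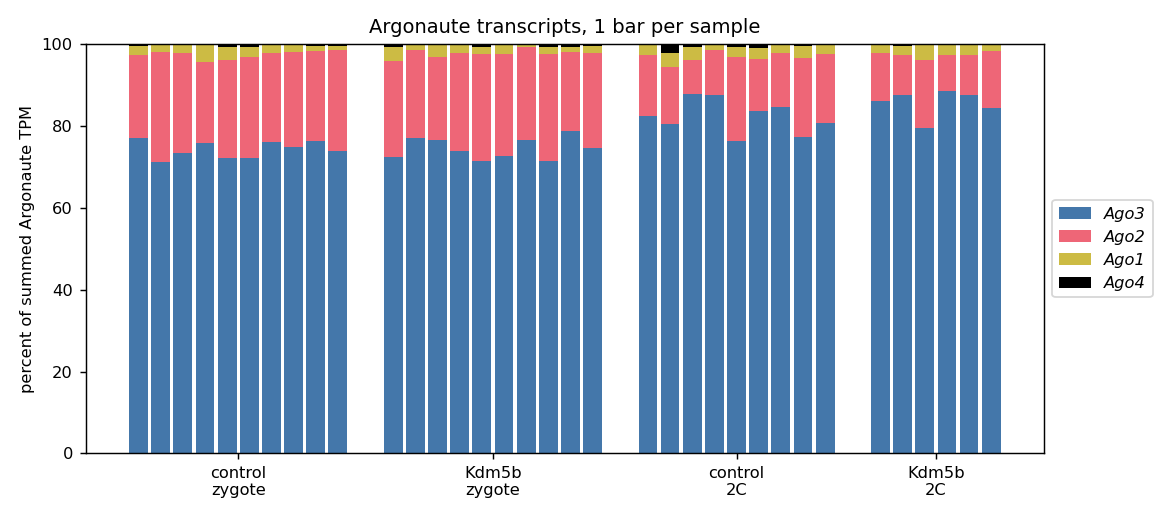
Percent of the summed TPM of the 4 Argonaute genes taken by each gene, with 1 stacked bar per sample in the 4 groups. Ago3 fills between 71.2% and 88.6% of every bar and Ago2 most of the rest, and the Ago3 part is larger in the 2C groups.

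Ago3, Ago1 and Ago4 are neighbours on chromosome 4 and are read in the same direction, with 5469 bases between Ago3 and Ago1 and 20957 between Ago1 and Ago4. Their mean levels in control zygotes ran from 57.9 to 0.275 TPM. The 250 bases before each start are shown because levels of the 3 neighbours differ so much, with each CG, the pair of bases that carries DNA methylation, in capitals (RefSeq, GRCm38.p6, minus strand, starts as in the count table).
Ago3: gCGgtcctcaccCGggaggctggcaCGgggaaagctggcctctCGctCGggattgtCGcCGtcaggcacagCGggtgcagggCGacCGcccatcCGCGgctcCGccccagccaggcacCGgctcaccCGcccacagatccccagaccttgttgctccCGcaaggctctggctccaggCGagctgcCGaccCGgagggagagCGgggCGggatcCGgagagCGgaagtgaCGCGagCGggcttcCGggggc
Ago1: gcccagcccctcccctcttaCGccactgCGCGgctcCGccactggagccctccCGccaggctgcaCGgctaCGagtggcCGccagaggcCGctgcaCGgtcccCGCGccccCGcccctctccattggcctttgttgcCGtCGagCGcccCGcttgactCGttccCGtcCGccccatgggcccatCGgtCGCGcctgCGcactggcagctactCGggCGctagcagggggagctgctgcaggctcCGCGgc
Ago4: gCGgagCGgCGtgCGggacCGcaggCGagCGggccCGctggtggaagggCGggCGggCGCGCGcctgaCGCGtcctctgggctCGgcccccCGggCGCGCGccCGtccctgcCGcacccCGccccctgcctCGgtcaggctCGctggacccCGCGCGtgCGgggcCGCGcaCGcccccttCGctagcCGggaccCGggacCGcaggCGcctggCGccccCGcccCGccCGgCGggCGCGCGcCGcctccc
These stretches lie at chr4:126429543-126429792, chr4:126468584-126468833 and chr4:126533459-126533708. The letters CG, which read the same on both strands, occur 27 times before Ago3, 28 times before Ago1 and 46 times before Ago4. Of 32851 such windows of mouse genes the median held 6, and 8.56%, 7.61% and 0.323% held at least as many as Ago3, Ago1 and Ago4. All 3 starts were thus rich in CG, and the most CG-rich belonged to the gene with the fewest fragments. Methylation was not measured, and a relation of CG to level was not tested. Windows of 8 of the 9 genes were found, with 18 (Mael) to 46 CG, and Ago2 was not among them.

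Mael (chr1:166201385-166238744, minus strand, 12 exon blocks) was the most variable of the genes above 10 TPM in 3 of the 4 groups, the exception being Kdm5b 2C samples, where Xpo5 varied more. It ranged from 61.02 to 113.5 TPM in control zygotes (median 80.2), from 41.3 to 96.2 in Kdm5b zygotes (median 72.3), from 38.1 to 142 in control 2C samples (median 101) and from 41.6 to 113 in Kdm5b 2C samples (median 91.8). The coefficient of variation was 22.0% in control zygotes and 34.3% in control 2C samples, against 5.43% and 12.7% for Ago3. The stages overlapped, and the log2 fold change of 0.36 ± 0.19 (SE) in control embryos (edgeR, adjusted p = 0.114) and 0.40 ± 0.21 in Kdm5b embryos (adjusted p = 0.108) did not pass. It passed in control embryos without control 2C sample 2 (adjusted p = 0.0141) and in Kdm5b embryos without Kdm5b 2C sample 1 or 3 (adjusted p = 0.045 and 0.0229).

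Kdm5b mRNA moved none of the 8 tested genes past the test, and the filter on low counts left out Ago4. In zygotes 0 of 8 tested genes passed, where 0.134% of 11933 genes did (edgeR quasi-likelihood test). DESeq2 called 0 as well, and gave no adjusted p for Ago1 and Ago4. Drosha alone had an unadjusted p under 0.05, with a log2 fold change of −0.19 ± 0.07 (SE, 95% confidence interval −0.33 to −0.05, adjusted p = 0.318). Of the 10 Kdm5b zygotes 9 lay below the mean of the control zygotes for Drosha. The intervals of Dicer1, at −0.09 to 0.14, and of Ago3, at −0.13 to 0.10, were the narrowest, and that of Ago1, at −0.76 to 0.37, the widest. The remaining estimates were −0.17 for Dgcr8, −0.01 for Xpo5, −0.02 for Ago2 and −0.25 for Mael.

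In 2C samples 0 of 8 tested genes passed, where 0.0245% of 12244 genes did (edgeR). None had an unadjusted p under 0.05, and DESeq2 also called 0, again with no adjusted p for Ago1 and Ago4. Among the 8 tested genes the estimate farthest from 0 was that of Ago3, 0.23 ± 0.13 (SE, 95% confidence interval −0.03 to 0.49, adjusted p = 0.599), which was 0.114 without Kdm5b 2C sample 4. Ago4, left out by the filter on low counts, was at −2.06 without that filter (edgeR, adjusted p = 0.451). It had 0 to 8 fragments in Kdm5b 2C samples. Drosha was at −0.16 (interval −0.41 to 0.09), Dicer1 at −0.07 (−0.31 to 0.16) and Xpo5 at −0.02 (−0.54 to 0.49), all as log2 fold changes. The intervals were wider than in zygotes, and that of Ago1, at −0.54 to 0.84, was the widest. The labels name no tube strips, so sets of 8 neighbouring index numbers were taken in their place and are called index strips here. They held 3 control and 5 Kdm5b samples in one set and 6 and 1 in the other. With the strip as a covariate 0 of the 8 genes were called.

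The effect of the injection was not shown to differ between the stages for any of the 9 genes. In the interaction term over all 35 samples 0 of 9 passed, where 0.109% of 13778 genes did (edgeR). DESeq2 called 0, and gave no adjusted p for Ago4. Ago4 alone had an unadjusted p under 0.05 (0.0489, adjusted p = 0.548), at a level where most samples held fewer than 10 fragments. Ago3 had an interaction of 0.25 ± 0.13 (SE) on the log2 scale (adjusted p = 0.572).

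Partners of these proteins were compared between the control stages in 3 lists, with 26.8% of all genes higher and 25.4% lower in 2C samples as the background. Of 12 genes that work beside the Microprocessor, exportin 5 or DICER, all tested, 4 were higher, 2 lower and 6 did not pass (edgeR), with a median log2 fold change of 0.29 against 0.02 over all genes. Zcchc11, which encodes the uridylating enzyme TUT4, rose by 2.83 ± 0.52 (SE) on the log2 scale (adjusted p = 5.62e-05), from a mean of 0.517 TPM in control zygotes to 3.53 in control 2C samples, among which it ranged from 0.611 to 8.93. Its relative Zcchc6, which encodes TUT7, fell by 0.84 ± 0.13 (adjusted p = 4.06e-06), from 42.0 to 22.1 TPM. Lin28a and Lin28b, whose products block let-7 processing, rose by 0.40 ± 0.09 (adjusted p = 0.000484) and 0.34 ± 0.13 (adjusted p = 0.0281). The call of Lin28b was lost without control zygote 2 or control 2C sample 3, 7 or 9, with adjusted p up to 0.0707. Ran, the GTPase that exportins use, rose by 0.54 ± 0.17 (adjusted p = 0.00915), and Tarbp2, which encodes the DICER partner TRBP, fell by 0.72 ± 0.24 (adjusted p = 0.0126).

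Of 10 Argonaute partners and turnover factors, all tested, 4 were higher, 3 lower and 3 did not pass in control embryos (edgeR), beside 26.8% higher and 25.4% lower of all genes, with a median log2 fold change of 0.00. Ipo8, which encodes an import receptor that binds Argonaute, rose by 0.56 ± 0.06 (SE, adjusted p = 1.09e-08). The 3 genes of the GW182 scaffolds that Argonaute recruits passed in control embryos, with log2 fold changes for Tnrc6b of 0.50 ± 0.10 (adjusted p = 0.000154), Tnrc6a of 0.36 ± 0.14 (adjusted p = 0.0378) and Tnrc6c of 0.18 ± 0.07 (adjusted p = 0.0379). Tnrc6a did not pass without control zygote 2, 3, 6, 8, 9 or 10 or control 2C sample 3, 4, 6 or 7 (adjusted p up to 0.0947), nor Tnrc6c without control zygote 3, 4, 5, 9 or 10 or control 2C sample 1, 2, 3, 6, 8 or 9 (adjusted p up to 0.0886). In Kdm5b embryos Tnrc6a, at 0.16 (adjusted p = 0.289), and Tnrc6c, at 0.00 (adjusted p = 0.969), did not pass. Tsn and Tsnax, whose products form the nuclease C3PO, fell by 1.49 ± 0.19 (adjusted p = 3.52e-07) and 1.27 ± 0.11 (adjusted p = 5.96e-10). Zswim8, which encodes a ubiquitin ligase adaptor that targets Argonaute, fell by 0.45 ± 0.17 (adjusted p = 0.0251), and the call was lost without control 2C sample 7 (adjusted p = 0.0515).

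Of 23 piRNA pathway genes 21 were tested in control embryos, of which 3 were higher, 12 lower and 6 did not pass (edgeR), beside 26.8% higher and 25.4% lower of all genes. Their median log2 fold change was −0.49 against 0.02 over all genes, and the difference of the list from all genes was not tested. Rnf17 fell by 2.39 ± 0.17 (SE, adjusted p = 2.80e-11), Tdrd5 by 2.30 ± 0.14 (adjusted p = 4.06e-12) and Tdrd12 by 1.69 ± 0.12 (adjusted p = 3.74e-11), all Tudor domain genes of germ cell granules. Gtsf1, which encodes a cofactor of PIWI proteins, fell by 0.90 ± 0.11 (adjusted p = 1.19e-07). Mybl1, which encodes a transcription factor of piRNA precursors, rose by 0.77 ± 0.10 (adjusted p = 9.64e-07), Tdrd6 by 1.11 ± 0.36 (adjusted p = 0.0105) and Piwil2 by 1.18 ± 0.41 (adjusted p = 0.0184, or 0.0579 without control 2C sample 4). Mael, which acts in the same pathway, was at 0.36 and did not pass.

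Of the 20 partner and piRNA genes named here 17 also passed in Kdm5b embryos (edgeR), and Tnrc6a, Tnrc6c and Tdrd6 did not. These 20 were chosen among genes that passed between the control stages. How many of all genes passing in control embryos also passed in Kdm5b embryos was not counted. Among the 17 was Ran, which did not pass there without Kdm5b 2C sample 3 or 4 (adjusted p of 0.0555 and 0.0509). Counts there were 5 higher and 3 lower of 12 processing partners, 2 higher and 3 lower of 10 Argonaute partners, and 3 higher and 12 lower of 22 piRNA genes, beside 29.3% higher and 29.5% lower of all genes. Kdm5b against control called 0 genes of these lists in zygotes (edgeR), with an unadjusted p under 0.05 for 3 processing partners, 1 Argonaute partner and 2 piRNA genes, and 0 in 2C samples, with 5, 1 and 3. Of all genes, 10.3% in zygotes and 9.41% in 2C samples had such a p. DESeq2 called 1 of them in zygotes (Tdrkh) and 2 in 2C samples (Ddx5 and Lin28a). A single list gene passed the interaction, Ddx5, which encodes a helicase of the Microprocessor (named after its values were seen). Ddx5 was at 275 TPM ± 13.4 in control zygotes (SD, n = 10), 286 ± 18.4 in Kdm5b zygotes (SD, n = 10), 287 ± 56.5 in control 2C samples (SD, n = 9) and 176 ± 33.7 in Kdm5b 2C samples (SD, n = 6). Its interaction was −0.73 ± 0.12 (SE) on the log2 scale (edgeR, adjusted p = 0.00772).

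**Figure D4:**
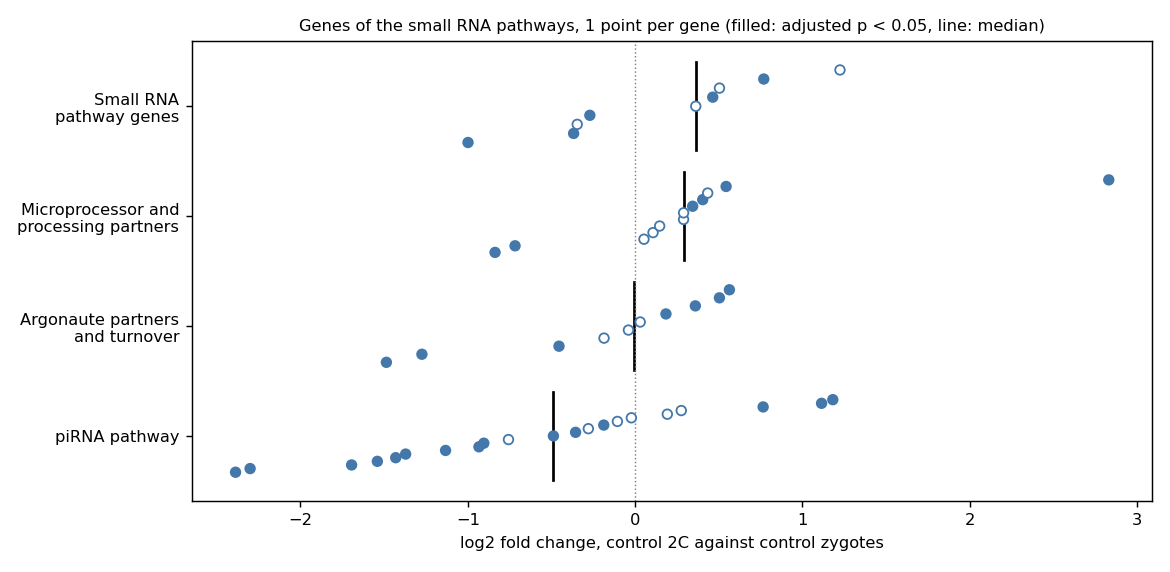
Log2 fold change between control zygotes and control 2C samples (horizontal axis) for each tested gene of the 4 lists, with filled points at an adjusted p under 0.05 and a line at the median of each list. The piRNA genes have their median at −0.49, left of 0, and the 9 small RNA pathway genes at 0.36, the value of Mael, which did not pass. Differences of the lists from all genes were not tested.

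Likeness over all 35 samples was measured as Pearson's r of log2 CPM (fragments scaled to library size) between each gene and the 13769 other genes that passed the filter, as a description. The samples share 2 stages and 2 library days, so a high r can come from the difference between the stages. Drosha was most like Hdlbp (r = 0.943), Ago3 most like Lrrc40 (0.929), Xpo5 most like Med17 (0.919) and Dicer1 most like the oocyte gene Nlrp9b (0.913). Ago2 was most like Gdpd1 (0.806), Dgcr8 most like Pdcd11 (0.781) and Mael most like Stpg1 (0.726). The highest r was 0.669 for Ago1 (Gm13154) and 0.657 for Ago4 (Gm7073), the genes with the fewest fragments.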

How the data were processed

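Total RNA of 35 embryo samples was sequenced from SMART-Seq Stranded libraries. The authors deposited raw counts, the whole number of fragments on each of 24480 genes. Per the study's methods and the submitters' processing notes, reads were trimmed with fastp 0.21.0, aligned to GRCm38 with STAR 2.7.3a and counted by strand with featureCounts 1.5.1. Duplicates were counted, and fragments mapping to several places were not. A table of repeats was not used here.

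After removal of the Kdm5b row, edgeR 4.0.16 (R 4.3.3) tested every comparison on the samples of its groups alone (TMM, filterByExpr with a minimum count of 10, quasi-likelihood test, Benjamini-Hochberg adjustment, threshold 0.05), tested on simulated data. TPM used the deposited exon lengths. Positions are those of the count table (mm10, the same build as GRCm38). DESeq2 1.42.0, other filters and normalizations, index strips, intact embryos, replicate blocks and leaving out each sample were alternatives. GENCODE M21 and RefSeq gave the sequences. Tut4 and Tut7 are listed as Zcchc11 and Zcchc6, and 1 of 24 piRNA genes, Spocd1, had no row. The labels call replicates biological, and each is a separate embryo or pool. The genes, lists and alternatives were chosen with earlier results of these data known. Named list genes were, per list, up to 4 in each direction with the smallest p among those passing between the control stages, and for each of the 9 genes the 1 gene with the highest correlation. Python 3.11.15, scipy 1.17.1 and matplotlib 3.10.9 were used.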

Additional observations from a re-analysis of the deposited data

Results flagged for a closer look

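The interaction of injection and stage passed for Ddx5. Stage, freezing and library day cannot be told apart, so the interaction cannot be assigned to stage alone. The interaction was −0.73 on the log2 scale (edgeR quasi-likelihood test, adjusted p = 0.00772). Kdm5b against control gave 0.07 ± 0.05 (SE) in zygotes (edgeR, adjusted p = 0.655) and −0.66 ± 0.13 in 2C samples (adjusted p = 0.0894), and neither passed. The interaction kept its direction and its call without each of the 35 samples (adjusted p of 0.00176 to 0.0372) and with intact embryos alone (−0.82, adjusted p = 0.00207). The interaction was not fitted with the index strip. With the strip as a covariate the difference in 2C samples was −0.82 (edgeR, adjusted p = 0.00616). In intact embryos alone that difference was −0.73 and did not pass (edgeR, adjusted p = 0.21). Ddx5 is known to act in transcription and splicing as well as with DROSHA, and what moved it was not tested. Among the 9 genes, none of the 36 sets of values (9 genes in 4 groups) held a sample that stood apart by Dixon's criterion, which chance meets in about 1 of 20 sets.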

How the results depend on the processing

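Calls of the 9 genes moved by at most 2 under every alternative at an adjusted p of 0.05. Adding a fold change over 2 left 0 of 5 in control embryos and 1 of 6 in Kdm5b embryos. In control embryos that stricter count was 1 with no filter on low counts, with all 35 samples in a single fit and with intact embryos only, since Xpo5 lies at the threshold, and 0 to 1 when each sample was left out. In Kdm5b embryos it was 0 with DESeq2's size factors, with DESeq2's Wald test and with a mean of at least 50 fragments, and 0 to 2 when each sample was left out. The order of levels gave 14 of 32 neighbour pairs with intact embryos only, where fewer samples enter, against 23. Kdm5b 2C samples then numbered 5, too few for any pair of that group to pass this exact test. The order itself was the same in all 4 groups.

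The injection effect of genes near 0 changed sign in places. With the index strip as a covariate Ago2 was at 0.014 and Mael at 0.038 in 2C samples, and with intact embryos only the interaction was −0.093 for Drosha and −0.017 for Dgcr8. Leaving out each sample gave, for Kdm5b against control zygotes, −0.060 to 0.006 (Ago2), −0.035 to 0.009 (Ago3), 0.000 to 0.059 (Dicer1) and −0.036 to 0.037 (Xpo5), in 2C samples −0.162 to 0.131 (Xpo5), and for the interaction −0.060 to 0.164 (Dgcr8), −0.052 to 0.073 (Drosha), −0.095 to 0.188 (Mael) and −0.148 to 0.15 (Xpo5). None of these passed the test.

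Deviations of same-numbered samples had correlations of −0.29 to 0.23. Their median was 0.13 for Kdm5b against control 2C samples and −0.008 to 0.033 in the other comparisons. Correlations between samples of different numbers were not computed, so whether the numbers pair samples was not settled. With the replicate block the call of Ago1 in Kdm5b embryos was lost (log2 fold change 0.61, adjusted p = 0.214), with those of Ran, Zcchc11, Zswim8 and Piwil2 there and of Lin28b, Tnrc6a, Tnrc6c, Piwil2 and Tdrd6 in control embryos. With no filter Ago1 did not pass in Kdm5b embryos either (0.76, adjusted p = 0.0711), nor did Ran and Piwil2, while Dgcr8 passed in control embryos (−0.45, adjusted p = 0.0243), as it did in a single fit of all samples (−0.38, adjusted p = 0.0207). Without the filter Lin28b, Tnrc6a and Tnrc6c did not pass, and with intact embryos Tarbp2, Lin28b, Tnrc6c and Zswim8 did not. Over all genes, calls of Kdm5b against control were 104 by DESeq2 and 0 in a single fit against 16 in zygotes, and 101 by DESeq2, 9 with either other filter, 19 with the block, 528 in a single fit, 253 with the strip and 0 in intact embryos against 3 in 2C samples. The interaction called 88 by DESeq2 and 36 in intact embryos against 15. Leaving out each sample gave 5 to 29 in zygotes, 0 to 6 in 2C samples and 7 to 42 for the interaction, so these background shares are themselves uncertain. DESeq2's scaling moved the median change over all genes (log2) to 0.12 between the control stages and 0.16 between the Kdm5b stages. Small counts limit Ago1 and Ago4.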
